A study of Mus musculus with 4 samples.

Results

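The interleukin receptor genes are the 36 genes whose symbol in the deposited tables starts with Il, a number and r, such as Il1r1 or Il17ra, with Il1rn left out because it encodes an antagonist and not a receptor. They were chosen by symbol, out of 17008 genes with a read in any library, and 33 of the 36 had a read in all 4 libraries. Il11ra2, Il13ra2, Il1rapl1 and Il1rapl2, which carry such symbols in RefSeq, have no line in the tables and are not analysed here. The libraries hold RNA of macrophages sorted from C57BL/6J mice labelled 6 to 8 weeks old. They come from T-ALL bone marrow, normal bone marrow, T-ALL spleen and normal spleen, with 1 library each. The T-ALL mice carried T cell acute lymphoblastic leukaemia at day 21 after a transplant of GFP-positive leukaemia cells into mice that were not irradiated, and normal mice are the day 0 samples. There were no replicates, so no p-value is given and the spread between animals is unknown. The sort markers and the number of mice per library are not stated in the labels.

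Interleukin receptors are assembled from chains, most of which belong to a few families. Class I receptors, such as those for IL-2, IL-4, IL-6, IL-7 and IL-12, and class II receptors, such as that for IL-10, signal through JAK kinases and STAT factors, and many share a chain: Il2rg encodes the common gamma chain, Csf2rb the common beta chain and Il6st the gp130 chain. The signalling receptors of the IL-1 family carry a TIR domain and act through MyD88, and those of the IL-17 family signal through the adaptor Act1. In macrophages, IL-4 and IL-13 drive alternative activation and IL-10 restrains inflammatory output.

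RNA of other cell types was present in every library, and its amount differed between groups. Levels are CPM, a gene's uniquely mapped reads scaled to the library's total, which was 9399362 in T-ALL bone marrow, 9809676 in normal bone marrow, 9160157 in T-ALL spleen and 8979385 in normal spleen. One read was therefore worth 0.102 to 0.111 CPM. All 12 macrophage markers were detected in each library, and their sum was 3625 CPM in T-ALL bone marrow, 501 CPM in normal bone marrow, 5268 CPM in T-ALL spleen and 9176 CPM in normal spleen. In normal bone marrow, neutrophil precursor markers summed to 14938 CPM, far above the macrophage markers, and in T-ALL bone marrow to 3636 CPM. Mature neutrophil markers were far above the macrophage markers in both bone marrow libraries, at 27038 CPM in T-ALL and 35128 CPM in normal mice. T cell markers were highest in T-ALL spleen. Sex-linked transcripts also differed between libraries: Xist, the RNA of the inactive X chromosome, was at 0.638 CPM in T-ALL bone marrow, 865 CPM in normal bone marrow, 419.9 CPM in T-ALL spleen and 845 CPM in normal spleen. Ddx3y, a Y-linked gene, was read in T-ALL mice, at 93.0 CPM in marrow and 58.1 CPM in spleen, and had 0 reads in both normal libraries. A difference between T-ALL and normal mice and one between male and female RNA therefore cannot be told apart in these libraries, which bears on the X-linked Il13ra1 and Il2rg and on every other T-ALL comparison below. T-ALL spleen held both transcripts and T-ALL bone marrow little Xist, so the same limit holds between the organs of T-ALL mice. In such bulk RNA, fewer cells of a type and less RNA per cell cannot be told apart.

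**Figure D1:**
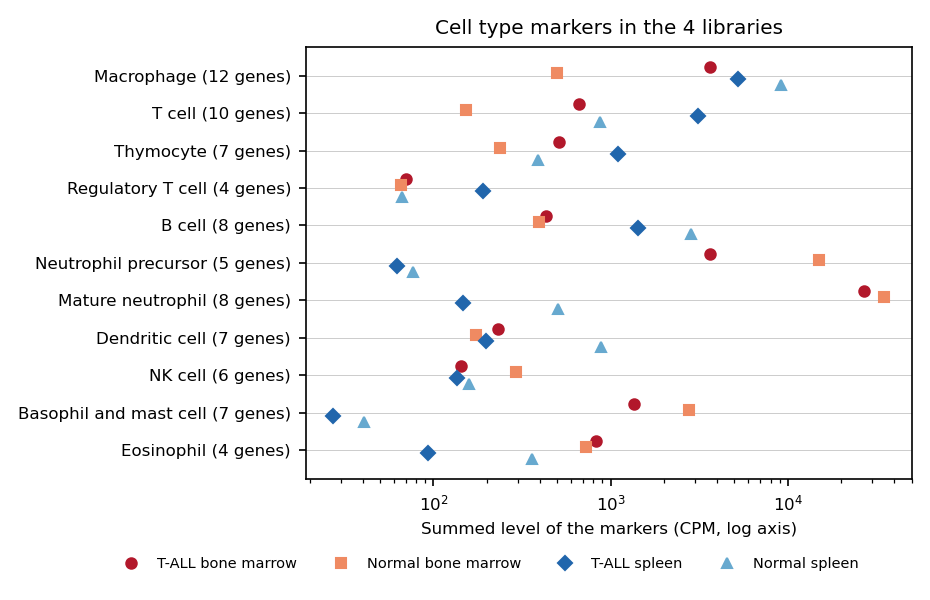
Summed CPM (log axis) of marker genes of 11 cell types in the 4 libraries, 1 point per library. Macrophage markers are lowest in normal bone marrow at 501 CPM, neutrophil and basophil markers are far higher in both bone marrow libraries than in both spleen libraries, and T cell markers are highest in T-ALL spleen at 3125 CPM.

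Together the 36 genes took 0.170% of the reads in T-ALL bone marrow (Wilson 95% interval 0.168 to 0.173), 0.106% in normal bone marrow (0.104 to 0.108), 0.153% in T-ALL spleen (0.151 to 0.156) and 0.247% in normal spleen (0.244 to 0.250). Their summed share was thus higher in the T-ALL than in the normal library of bone marrow and lower in the T-ALL than in the normal library of spleen. All intervals cover counting error alone and treat each read as its own molecule, which PCR copies are not. Of the 36, 27 reached 10 CPM in at least 1 library, and 9 stayed below it in all 4, with a highest value of 8.16 CPM. Compared per length, with the deposited RPKM, Il17ra was the highest member in T-ALL bone marrow at 97.9 RPKM. Il2rg led the other 3 libraries, at 54.4 RPKM in normal bone marrow, 198 RPKM in T-ALL spleen and 195 RPKM in normal spleen. Below it came Il17ra in normal bone marrow (48.1 RPKM), Il21r in T-ALL spleen (52.7 RPKM) and Il10ra in normal spleen (138 RPKM).

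**Figure D2:**
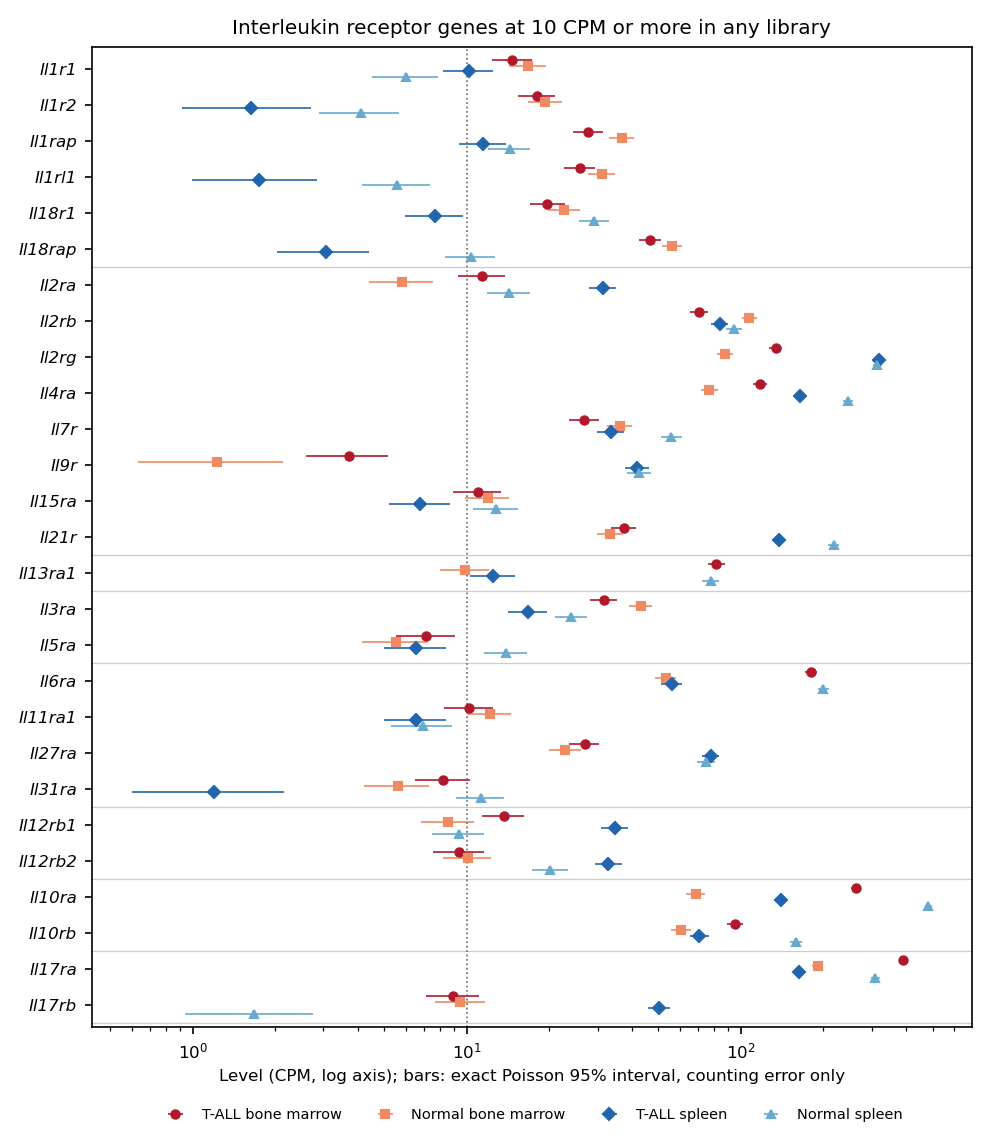
CPM (log axis) of the 27 interleukin receptor genes that reached 10 CPM (dotted line) in any of the 4 libraries, grouped by family, with exact Poisson 95% intervals that cover counting error only. Il13ra1, Il6ra and Il10ra are higher in T-ALL bone marrow and normal spleen than in the other 2 libraries, and Il9r is near 42 CPM in both spleen libraries and below 4 CPM in both bone marrow libraries.

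In bone marrow, 4 interleukin receptor genes were higher in T-ALL mice and 0 were lower. By the size rule used here, a call needs a 2-fold difference on the log2(CPM + 1) scale and a level of at least 10 CPM in one of the libraries compared. That minimum left 23 of the 36 members, and the 4 higher ones were Il13ra1, Il10ra, Il6ra and Il17ra. Over all 9716 genes that met the minimum, 7.72% were higher and 1.13% lower, against 17.4% and 0% of the 23 members. The median log2 fold of the 23 was -0.10, and that of all 9716 genes was -0.06. The 19 other members that met the minimum stayed under 2-fold, the nearest to it being Il2ra.

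In spleen, 7 members were lower in the T-ALL library and 3 were higher, of 24 that met the minimum. Il13ra1, Il31ra, Il6ra, Il18r1, Il10ra, Il18rap and Il10rb were lower, and Il17rb, Il12rb1 and Il2ra were higher. Over all 9781 genes, 10.7% were higher and 10.6% lower, against 12.5% and 29.2% of the 24 members. The median log2 fold of the 24 was -0.62, and that of all genes was -0.06. Nearest to the 2-fold limit, Il2ra was inside it with a log2 fold of 1.08 and Il10rb with -1.16, and Il5ra was outside it with -0.98 and Il17ra with -0.92.

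**Figure D3:**
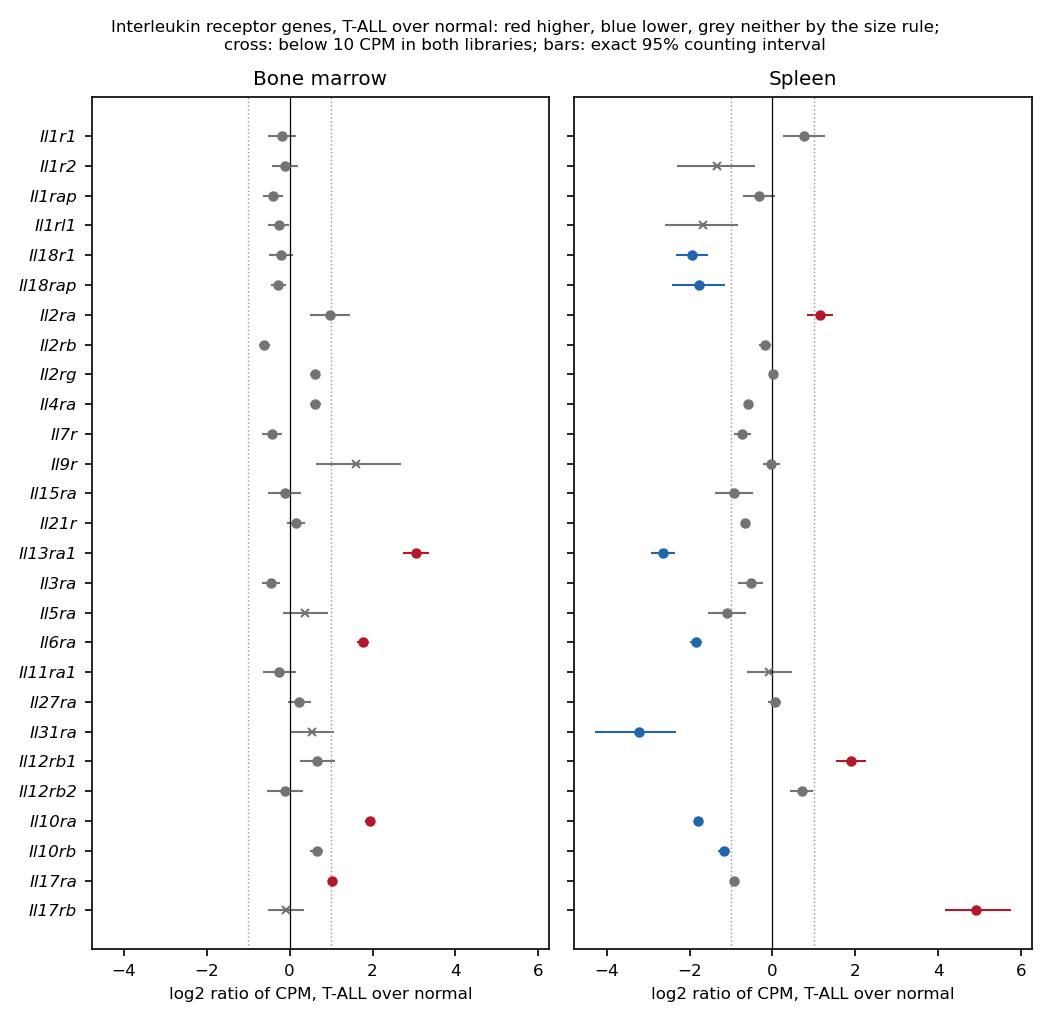
Log2 ratio of CPM, T-ALL over normal, in bone marrow (left) and spleen (right) for the 27 members, with exact 95% counting intervals; red is higher, blue lower and grey neither by the size rule, and crosses mark genes below 10 CPM in both libraries. Il13ra1, Il6ra and Il10ra lie right of 0 in bone marrow and left of 0 in spleen, and Il17rb lies farthest right in spleen with a 30.1-fold ratio.

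Il13ra1, Il6ra and Il10ra were higher in T-ALL than in normal bone marrow and lower in T-ALL than in normal spleen. Il13ra1, the X-linked gene of the IL-13 receptor chain that pairs with the IL-4 receptor alpha chain, was at 81.3 CPM in T-ALL and 9.89 CPM in normal bone marrow, and at 12.4 CPM in T-ALL and 77.5 CPM in normal spleen. T-ALL bone marrow and normal spleen were thus high and the other 2 libraries low. Its T-ALL bone marrow value was 8.22-fold the normal one (6.65 to 10.3, exact binomial 95% interval, as for all folds), and its T-ALL spleen value was 6.23-fold lower than the normal one (5.10 to 7.66). Among all genes that met the minimum it ranked 69 from the top in bone marrow and 40 from the bottom in spleen.

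Il10ra, the ligand-binding chain of the IL-10 receptor, was at 263 CPM in T-ALL and 68.4 CPM in normal bone marrow, 3.84-fold higher (3.53 to 4.19). In spleen it was at 139.8 CPM in T-ALL and 483 CPM in normal mice, 3.45-fold lower (3.25 to 3.68). Its partner Il10rb, a chain also used by other cytokines of the class, was at 95.1 CPM in T-ALL and 60.5 CPM in normal bone marrow, which is under 2-fold. In spleen Il10rb was at 70.6 CPM in T-ALL and 159 CPM in normal mice, 2.25-fold lower (2.05 to 2.47). Il6ra, which binds IL-6, was at 180.4 CPM in T-ALL and 53.2 CPM in normal bone marrow, 3.39-fold higher (3.07 to 3.75). It was at 56.0 CPM in T-ALL spleen and 200.0 CPM in normal spleen, 3.57-fold lower (3.24 to 3.95).

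Of 9182 genes that met the minimum in both organs, 269 (2.93%) were likewise higher in T-ALL bone marrow and lower in T-ALL spleen, and 13 (0.142%) the other way. The 2 comparisons share no library. Of the 20 members that met the minimum in both, 7 had a positive log2 fold in bone marrow and a negative one in spleen, 2 the other way, 4 were positive in both and 7 negative in both. These signs carry no size limit and were not counted over all genes, so they cannot be set against the 2.93%. Macrophage markers were higher in T-ALL bone marrow in 12 of 12, with a sum 7.23-fold that of normal bone marrow. In T-ALL spleen 4 of 12 were lower and 0 higher, with a sum 1.74-fold lower than in normal spleen. Within T-ALL mice their sum was 5268 CPM in spleen and 3625 CPM in bone marrow, with 2 of 12 higher and 2 lower in spleen. Il13ra1 and Il6ra were both lower in spleen in that comparison. Dendritic cell markers were lower in T-ALL spleen in 7 of 7, at 197 CPM summed against 886 CPM in normal spleen. In T-ALL bone marrow 2 of the 4 that met the minimum were higher and 0 lower. Their sums there were 233 CPM in T-ALL and 173 CPM in normal mice. The part of macrophage and dendritic cell RNA in the results was not tested.

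The 250 bases before the start of Il13ra1 and Il6ra, whose levels differed together, and of Il17rb and Il9r, which led the higher members in T-ALL spleen and between the organs of normal mice, differ in composition. They are RefSeq sequences of GRCm38.p6, the build of the reference and not of the deposited tables, which name none. Capitals mark the letters GAGGAA (a core bound by PU.1 and other ETS factors) and AGATAA (a core bound by GATA factors), or their reverse complements TTCCTC and TTATCT. The window lies at chrX:36111858-36112107 on the plus strand for Il13ra1, chr3:89913197-89913446 on the minus strand for Il6ra, chr14:30008897-30009146 on the minus strand for Il17rb and chr11:32200280-32200529 on the minus strand for Il9r, each written 5′ to 3′.
Il13ra1: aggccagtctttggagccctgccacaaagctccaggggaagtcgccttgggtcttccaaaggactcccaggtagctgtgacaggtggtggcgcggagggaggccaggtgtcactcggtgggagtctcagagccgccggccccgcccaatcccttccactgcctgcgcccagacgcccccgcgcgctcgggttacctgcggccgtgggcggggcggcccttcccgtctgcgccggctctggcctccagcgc
Il6ra: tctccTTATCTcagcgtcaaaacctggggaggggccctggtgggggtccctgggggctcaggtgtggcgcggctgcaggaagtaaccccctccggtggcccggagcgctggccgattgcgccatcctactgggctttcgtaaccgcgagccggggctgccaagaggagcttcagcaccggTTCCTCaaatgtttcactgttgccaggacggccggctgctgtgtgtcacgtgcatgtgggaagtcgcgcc
Il17rb: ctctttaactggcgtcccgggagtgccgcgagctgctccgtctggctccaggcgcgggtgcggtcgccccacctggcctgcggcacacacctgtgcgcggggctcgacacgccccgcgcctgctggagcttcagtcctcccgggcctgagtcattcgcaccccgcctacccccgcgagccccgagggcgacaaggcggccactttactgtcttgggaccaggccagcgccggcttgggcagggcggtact
Il9r: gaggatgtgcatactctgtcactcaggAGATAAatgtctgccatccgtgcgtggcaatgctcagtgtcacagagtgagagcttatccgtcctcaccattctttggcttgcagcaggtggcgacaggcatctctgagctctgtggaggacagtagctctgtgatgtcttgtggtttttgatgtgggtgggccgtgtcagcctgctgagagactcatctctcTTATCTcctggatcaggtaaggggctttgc
Il13ra1, Il6ra and Il17rb have 21, 18 and 27 CG pairs in their windows, and Il9r has 5, where the median of 27025 promoters was 6. The windows of Il13ra1 and Il17rb hold neither motif, that of Il6ra holds 1 of each, and that of Il9r holds 2 of the GATA core. Of 29 members with a promoter entry, 7 held GAGGAA and 6 held AGATAA on either strand, where 23.1% and 10.3% of all promoters did. The STAT-type letters TTCNNNGAA stood in 4 of the 29 and in 7.18% of all promoters, and in none of the windows printed. Such matches describe letters and not bound sites.

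Il17rb, which encodes the IL-25 receptor chain, was the member farthest above normal in T-ALL spleen. It was at 50.2 CPM in T-ALL spleen and 1.67 CPM in normal spleen, 30.1-fold higher (18.0 to 54.2), and ranked 29 of 9781 genes from the top. In bone marrow it was at 8.94 CPM in the T-ALL library and 9.48 CPM in the normal library, so that normal spleen held the lowest value of the 4. Reads covered 98.0% of the gene's listed length in T-ALL spleen and 27.4% in normal spleen, where it had 15 reads.

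The receptor chains for IL-12 and the alpha chain for IL-2 were also high in T-ALL spleen. Il12rb1, shared by the IL-12 and IL-23 receptors, was at 34.6 CPM in T-ALL and 9.35 CPM in normal spleen, 3.70-fold higher (2.90 to 4.76), and at 13.6 and 8.56 CPM in T-ALL and normal bone marrow. Il12rb2, the IL-12 signalling chain, was at 32.9 CPM in T-ALL and 20.2 CPM in normal spleen, which is under 2-fold, and at 9.36 and 10.1 CPM in T-ALL and normal bone marrow. Its reads are uncertain because Serbp1 overlaps it in RefSeq and no strand setting is given. Il2ra, the alpha chain that raises affinity for IL-2 and marks regulatory and activated T cells, was at 31.3 CPM in T-ALL and 14.3 CPM in normal spleen, 2.20-fold higher (1.78 to 2.73). In bone marrow Il2ra was at 11.4 CPM in T-ALL and 5.81 CPM in normal mice, with a log2 fold of 0.86, just outside the size rule.

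The sums of T-lineage markers were also higher in T-ALL than in normal spleen. T cell markers were higher in 8 of 9 that met the minimum and lower in 0, and their sum was 3125 CPM in T-ALL spleen and 872 CPM in normal spleen. Thymocyte markers summed to 1097 CPM in T-ALL and 388 CPM in normal spleen, with Rag2 at 0 reads in normal spleen. Regulatory T cell markers summed to 192 CPM in T-ALL and 66.2 CPM in normal spleen, with Ikzf2 higher and Foxp3 lower by the size rule. In bone marrow T cell markers were also higher in 9 of 9, at 667 CPM in T-ALL against 153 CPM in normal mice. There Il12rb1 was 1.59-fold higher (1.20 to 2.12) and Il2ra 1.96-fold higher (1.41 to 2.75), both short of the size rule. Il17rb was below the minimum in both bone marrow libraries and could not be called. Between the normal libraries, the T cell marker sum was higher in spleen than in bone marrow, at 872 against 153 CPM. Il17rb was lower in normal spleen, at 1.67 against 9.48 CPM, both below the minimum. Il2ra was higher there, at 14.3 against 5.81 CPM, and Il12rb1 was at 9.35 and 8.56 CPM. The part of T-lineage RNA in the spleen values was not tested.

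Of the common gamma chain and its partners, Il2rg, Il9r, Il21r and Il2ra were higher in spleen than in bone marrow in both normal and T-ALL mice and Il4ra in normal mice alone, while Il2rb, Il7r and Il15ra passed the size rule in no comparison. Il2rg itself, an X-linked gene, was at 134 CPM in T-ALL and 87.8 CPM in normal bone marrow, and at 319 CPM in T-ALL and 315 CPM in normal spleen. Its ratio in spleen was 1.01 (0.961 to 1.07), so the counting interval lay near equality. Il4ra, which binds IL-4, was at 118 CPM in T-ALL and 76.8 CPM in normal bone marrow, and at 164 CPM in T-ALL and 246 CPM in normal spleen, under 2-fold in both organs. Il21r, the IL-21 receptor, was at 37.3 CPM in T-ALL and 33.4 CPM in normal bone marrow and at 137 CPM in T-ALL and 218 CPM in normal spleen.

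Il9r, the IL-9 receptor, was mostly read in the spleen libraries. It had 41.7 CPM in T-ALL and 42.4 CPM in normal spleen, and 3.72 CPM in T-ALL and 1.22 CPM in normal bone marrow. Il7r, the IL-7 receptor of lymphocytes, was at 26.8 CPM in T-ALL and 36.2 CPM in normal bone marrow and at 33.6 CPM in T-ALL and 55.8 CPM in normal spleen, under 2-fold in both organs. Il2rb, the beta chain for IL-2 and IL-15, was at 70.4 CPM in T-ALL and 107 CPM in normal bone marrow and at 83.8 CPM in T-ALL and 94.8 CPM in normal spleen. Il15ra, which presents IL-15, was at 11.0 and 11.9 CPM in T-ALL and normal bone marrow and at 6.77 and 12.8 CPM in T-ALL and normal spleen. None of these 4 passed 2-fold with the minimum met in either organ's T-ALL comparison. B cell markers summed to 2841 CPM in normal spleen against 394 CPM in normal bone marrow, and to 1425 CPM in T-ALL spleen. The sums of macrophage, T cell and dendritic cell markers were also higher in normal spleen than in normal bone marrow. Those of neutrophil, basophil and mast cell, eosinophil and NK cell markers were lower. By the size rule, however, 2 of 6 NK cell markers were higher in normal spleen and 1 lower, and 1 of 4 eosinophil markers was higher and 3 lower. The part of these cell types was not tested.

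No receptor gene of the IL-1 family passed the size rule between T-ALL and normal bone marrow, and most were low in spleen. Il1r2, Il1r1, Il1rl2, Il1rl1, Il18r1 and Il18rap follow one another in that order among protein-coding genes in RefSeq, with no other protein-coding gene between them. Il1r1, the signalling IL-1 receptor, was at 14.7 and 16.7 CPM in T-ALL and normal bone marrow, and at 10.2 and 6.01 CPM in T-ALL and normal spleen. Il1r2, its decoy, was at 18.0 and 19.4 CPM in T-ALL and normal bone marrow, and at 1.64 and 4.12 CPM in T-ALL and normal spleen. Il1rl1, the IL-33 receptor, was at 25.9 and 31.1 CPM in T-ALL and normal bone marrow. It was at 1.75 and 5.57 CPM in T-ALL and normal spleen. In spleen both Il1r2 and Il1rl1 were below the minimum in both libraries.

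The IL-18 receptor chains were lower in T-ALL spleen. Il18r1, the binding chain, was at 7.64 CPM in T-ALL and 29.2 CPM in normal spleen, 3.82-fold lower (2.92 to 5.04), and Il18rap, the accessory chain, at 3.06 CPM in T-ALL and 10.4 CPM in normal spleen, 3.39-fold lower (2.20 to 5.37). In bone marrow Il18r1 was at 19.7 and 22.6 CPM and Il18rap at 46.6 and 56.3 CPM in T-ALL and normal mice. Il1rap, the accessory chain shared by the IL-1, IL-33 and IL-36 receptors, lies elsewhere and was at 27.8 and 36.8 CPM in T-ALL and normal bone marrow and at 11.5 and 14.4 CPM in T-ALL and normal spleen. Markers of NK cells, which respond to IL-18, were lower in T-ALL spleen in 4 of 5, with sums of 136 CPM in T-ALL and 160 CPM in normal spleen, and this too was not tested as a part of the difference.

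**Figure D4:**
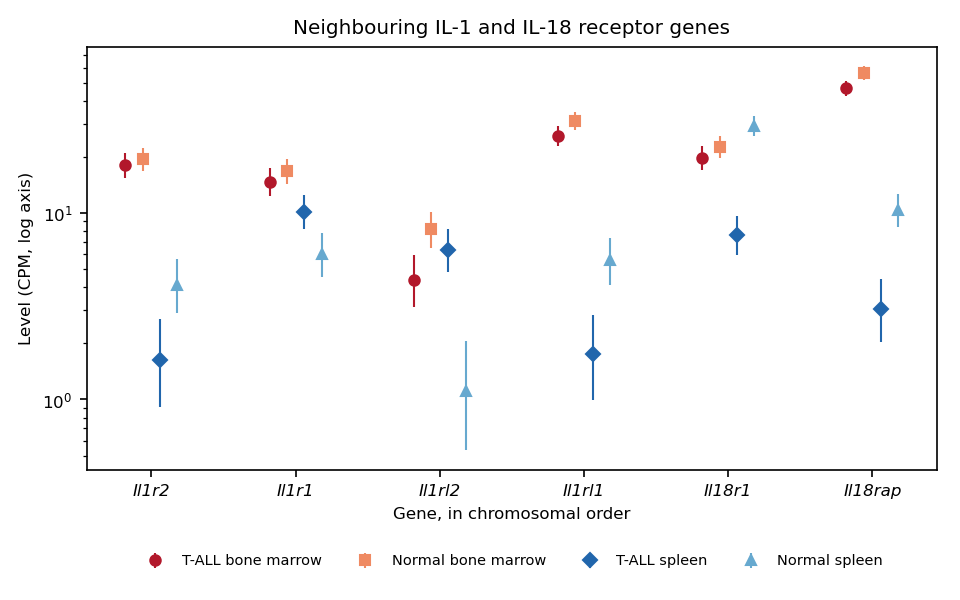
CPM (log axis) of the 6 neighbouring IL-1 and IL-18 receptor genes in chromosomal order, with exact Poisson 95% intervals for counting error only. Il1r2, Il1rl1 and Il18rap are higher in both bone marrow libraries than in both spleen libraries, while Il18r1 has its highest value, 29.2 CPM, in normal spleen.

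Il17ra and Il31ra each passed the size rule in 1 organ. Il17ra, the shared IL-17 receptor chain, was at 389 CPM in T-ALL and 191 CPM in normal bone marrow, 2.03-fold higher (1.92 to 2.15), and at 163 CPM in T-ALL and 309 CPM in normal spleen, 1.90-fold lower (1.79 to 2.03) and so just outside the size rule. Il31ra, a gp130-like chain for IL-31, was at 1.20 CPM in T-ALL and 11.2 CPM in normal spleen, 9.37-fold lower (5.02 to 19.4), from 11 and 101 reads, and at 8.19 and 5.61 CPM in T-ALL and normal bone marrow. Il27ra, the IL-27 receptor, was at 26.9 and 22.8 CPM in T-ALL and normal bone marrow and at 77.6 and 74.8 CPM in T-ALL and normal spleen, and its reads are uncertain where Palm3 overlaps it.

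The alpha chains that pair with the common beta chain, for IL-3 and IL-5, did not pass the size rule between T-ALL and normal mice in either organ. Il3ra was at 31.6 and 43.2 CPM in T-ALL and normal bone marrow and at 16.7 and 24.1 CPM in T-ALL and normal spleen. Il5ra was at 7.13 and 5.50 CPM in T-ALL and normal bone marrow and at 6.55 and 13.9 CPM in T-ALL and normal spleen. Il11ra1, for IL-11, was at 10.2 and 12.1 CPM in T-ALL and normal bone marrow and at 6.55 and 6.90 CPM in T-ALL and normal spleen. Its reads are uncertain, since Il11ra2 is a near-identical copy and Ccl27a overlaps it, and with 119 reads they covered 56.5% of its length in normal bone marrow where the 117 reads of Il15ra covered 87.2%.

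The 9 members below 10 CPM in all libraries include Il1rl2, the IL-36 receptor, at 4.36 and 8.16 CPM in T-ALL and normal bone marrow and 6.33 and 1.11 CPM in T-ALL and normal spleen. Il20rb stood between 2.45 and 3.87 CPM, and Il17re, Il17rd and Il22ra2, the last a soluble decoy for IL-22, between 0.109 and 2.98 CPM. Il17rc, the partner of Il17ra for IL-17A, had 2 to 5 reads in each library. Il20ra, Il22ra1 and Il23r had 0 to 5 reads. Il20ra had 0 reads in normal spleen, which allows up to 0.334 CPM, Il22ra1 had 0 in T-ALL spleen, which allows 0.328 CPM, and Il23r had 0 in T-ALL bone marrow, which allows 0.319 CPM, from a limit of 3 reads.

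The RPKM ratio between the chains of one receptor differed between T-ALL and normal mice for some receptors and little for others. Il18r1 was 0.254 times Il18rap in T-ALL and 0.241 times in normal bone marrow, and in spleen the pair stood at 1.84 and 1.22 RPKM in T-ALL and at 7.02 and 4.15 RPKM in normal mice. For the receptor of IL-4 and IL-13, Il4ra was 1.04 times Il13ra1 in T-ALL bone marrow and 5.59 times in normal bone marrow, and 9.48 times in T-ALL spleen and 2.29 times in normal spleen. For IL-10, Il10ra was 1.49 times Il10rb in T-ALL and 0.608 times in normal bone marrow, and 1.06 times in T-ALL and 1.64 times in normal spleen. Il6ra was 4.61 times Il6st in T-ALL and 3.29 times in normal bone marrow, and 0.955 times in T-ALL and 1.87 times in normal spleen. Both chains of the IL-25 receptor, Il17rb and Il17ra, were at 24.4 and 41.0 RPKM in T-ALL spleen, whereas in normal spleen they were at 0.811 and 77.9 RPKM. Il17rc was at 0.0922 to 0.235 RPKM in all 4 libraries while Il17ra was at 41.0 RPKM or more. These are levels of RNA, and whether both chains were in the same cells cannot be told from bulk libraries.

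**Figure D5:**
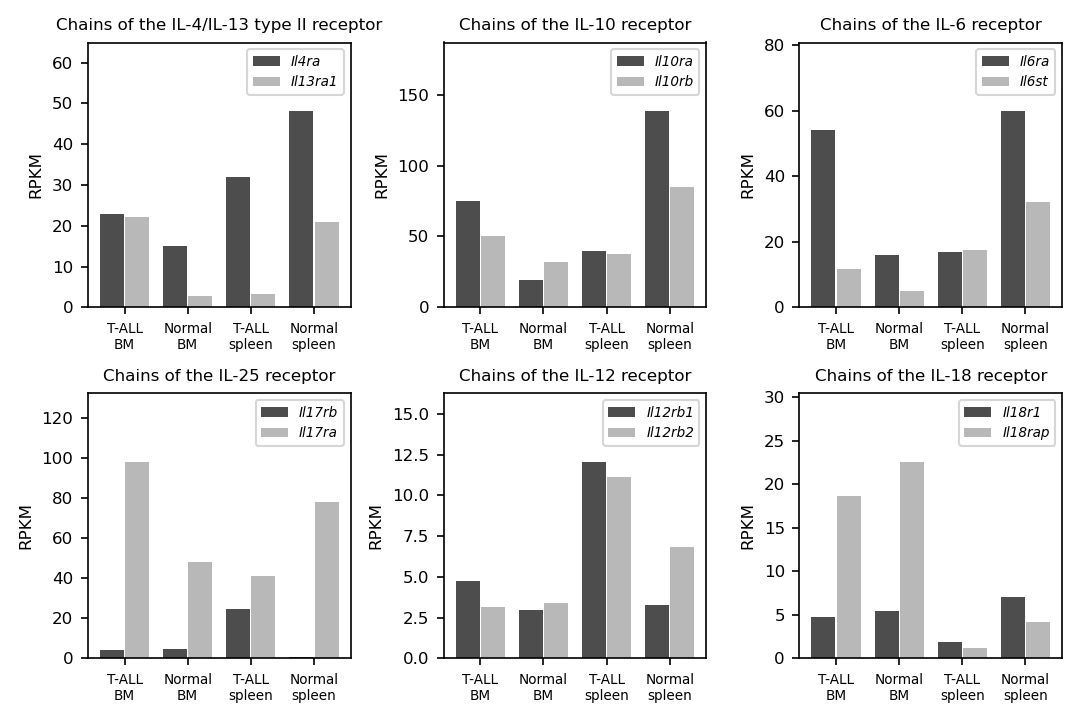
Deposited RPKM of the chains of 6 receptors in the 4 libraries, 1 library per bar. Il13ra1 nears Il4ra in T-ALL bone marrow alone (22.1 and 23.0 RPKM), and Il17rb reaches 24.4 RPKM in T-ALL spleen and stays below 5 RPKM in the other 3 libraries.

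Spleen and bone marrow differed in more of these genes than T-ALL and normal mice did. In normal mice 11 members were higher and 5 lower in spleen than in bone marrow, of 25 that met the minimum, where 15.9% of all 10072 genes were higher and 14.3% lower. The 11 were Il9r, Il13ra1, Il10ra, Il21r, Il6ra, Il2rg, Il4ra, Il27ra, Il10rb, Il5ra and Il2ra, led by Il9r at 34.7-fold (19.6 to 67.7), Il13ra1 at 7.84-fold (6.33 to 9.80) and Il10ra at 7.06-fold (6.51 to 7.67). The 5 were Il18rap, 5.43-fold lower in spleen (4.35 to 6.84), Il1rl1, Il1r2, Il1r1 and Il1rap. The median log2 fold was 0.89 for the 25 members and -0.05 for all genes.

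In T-ALL mice 8 members were higher and 8 lower in spleen than in bone marrow, of 25, where 5.7% of all 9857 genes were higher and 10.7% lower. Il9r (11.2-fold, 7.91 to 16.3), Il17rb (5.62-fold, 4.44 to 7.18), Il21r, Il12rb2, Il27ra, Il2ra, Il12rb1 and Il2rg were higher. Il18rap (15.2-fold lower, 10.4 to 23.2), Il1rl1 (14.8-fold, 8.93 to 26.3), Il1r2 (11.0-fold, 6.47 to 20.1), Il13ra1 (6.53-fold, 5.36 to 8.02), Il6ra, Il18r1, Il17ra and Il1rap were lower. The median log2 fold was -0.49 for the 25 members and 0.03 for all genes. Sex-linked transcripts also differed between these libraries, which bears on the X-linked Il13ra1 and Il2rg.

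The organ comparisons of normal and T-ALL mice share no library. Il21r, Il27ra, Il2ra, Il2rg and Il9r were higher in spleen in both, which is 62.5% of the calls in T-ALL and 45.5% of those in normal mice, where over all genes 305 were shared, or 54.3% and 19.1%. Il18rap, Il1r2, Il1rap and Il1rl1 were lower in both, which is 50.0% of the calls in T-ALL and 80.0% of those in normal mice, where over all genes 511 were shared, or 48.4% and 35.6%. Il13ra1 and Il6ra were higher in spleen than in bone marrow in normal mice and lower in T-ALL mice. Mature neutrophil markers summed to 505 CPM in normal spleen against 35128 CPM in normal bone marrow, and in T-ALL mice to 146 CPM in spleen against 27038 CPM in bone marrow. Basophil and mast cell markers summed to 40.7 CPM in normal spleen against 2766 CPM in normal bone marrow, and in T-ALL mice to 27.2 CPM in spleen against 1355 CPM in bone marrow. Their part in the lower IL-1 family values of spleen was not tested.

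Lists of genes related to interleukin receptors were counted by the same size rule, here and in the next paragraph. Beside these counts, 7.72% of all genes were higher and 1.13% lower in T-ALL bone marrow, and 10.7% higher and 10.6% lower in T-ALL spleen. Of 11 partner and related receptor chains matched, 3 were higher and 0 lower in T-ALL bone marrow. The list includes Ifngr1, Ifngr2, Ifnar1, Ifnar2 and Csf2ra, which are chains of interferon and GM-CSF receptors and not of interleukin receptors. Higher were Lifr, a gp130 partner, at 39.8 CPM in T-ALL and 6.63 CPM in normal mice, and Ifngr2 at 86.4 and 39.0 CPM. So was Il6st, at 63.8 and 26.4 CPM, 2.42-fold higher (2.09 to 2.81). In T-ALL spleen 0 were higher and 4 lower. They were Csf2rb2 at 16.8 CPM in T-ALL and 62.0 CPM in normal mice, Csf2ra at 63.2 and 213 CPM, Ifngr1 at 167 and 453 CPM, and Csf2rb, the common beta chain, at 78.9 and 206 CPM, 2.61-fold lower (2.39 to 2.84). Csf2rb and Csf2rb2 are close paralogs, so the split of their reads is uncertain.

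Of 11 JAK and STAT genes, none passed 2-fold in T-ALL bone marrow, and Jak2 (130.3 CPM in T-ALL, 336 CPM in normal mice) and Stat2 (82.2 and 194 CPM) were lower in T-ALL spleen. Of 11 adaptors of the IL-1 and IL-17 receptors, none passed in bone marrow, and Irak2, a kinase of the MyD88 pathway, was lower in spleen at 34.8 CPM in T-ALL and 82.3 CPM in normal mice. Most ligands had few reads, and of 24 with a line 5 met the minimum in bone marrow and 7 in spleen. Il1b (146 CPM in T-ALL, 18.3 CPM in normal mice) and Il18 (19.4 and 3.67 CPM) were higher in T-ALL bone marrow. In T-ALL spleen Il10 was higher, at 20.0 CPM in T-ALL and 1.34 CPM in normal mice. In bone marrow Il10 stayed below the minimum, at 9.04 CPM in T-ALL and 0.102 CPM in normal mice, from 85 reads and 1 read (88.7-fold, 15.5 to 3545). Il15 (3.06 and 16.0 CPM), Ebi3, a chain of IL-27 (12.7 and 41.7 CPM), and Il16 (151 and 384 CPM) were lower in T-ALL spleen. The antagonists Il1rn, at 30.5 CPM in T-ALL and 7.14 CPM in normal bone marrow, and Il18bp, at 20.0 and 5.50 CPM, were both higher in T-ALL bone marrow, and neither passed 2-fold in spleen.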

How the data were processed

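Per the labels' protocols, total RNA of the sorted cells was purified on RNeasy columns before a standard Illumina library preparation. Per the file headers, the authors deposited 1 table per library with the counts of uniquely mapped reads per gene, the listed length, the coverage in percent of that length, and RPKM. The deposited counts sum to the total in each header, and the deposited RPKM equals reads over length and total to within 9.2e-06%. The aligner, build, annotation and strand setting were not stated there. A gene with no line was set to 0.

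CPM was computed from the counts and the header total. Calls used a 2-fold threshold on log2(CPM + 1) and a minimum of 10 CPM in the higher library, so low genes have their change understated. Folds are CPM ratios (no pseudocount) with an exact binomial 95% interval. Shares have Wilson intervals and levels above 0 exact Poisson ones; a level of 0 reads has a limit of 3 reads. The size rule was tested on simulated data. No count model was fitted, since each group has 1 library. Alternatives were library sizes scaled by TMM (edgeR 4.0.16) or by the median of ratios (DESeq2 1.42.0, R 4.3.3), a pseudocount of 0.1 CPM, no minimum and a 1.5-fold threshold. All 36 members matched RefSeq by Gene ID, and 29 had a promoter entry, of which the first listed start was used; motifs were searched on both strands. Intervals came from scipy 1.17.1, tables from pandas 2.3.3 with numpy 2.4.6 (Python 3.11.15), and figures from matplotlib 3.10.9.

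The members, gene lists and markers were chosen with earlier results of these data known. Every member is named; those at 10 CPM or more in any library have all 4 values given. Of each pathway list, the members past the size rule in a T-ALL comparison are named, up to 4 by size of fold.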

Additional observations from a re-analysis of the deposited data

Results flagged for a closer look

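Il13ra1, Il10ra and Il6ra differed in opposite directions between T-ALL and normal mice in bone marrow and in spleen. The log2 fold in bone marrow minus that in spleen was 5.46 for Il13ra1, 3.71 for Il10ra and 3.56 for Il6ra. For Il13ra1 and Il6ra the difference between spleen and bone marrow also had opposite signs in normal and T-ALL mice, and the log2 fold in normal mice minus that in T-ALL mice is the same 5.46 and 3.56 by construction. With 1 library per group these differences were not tested.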

How the results depend on the processing

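The 8 counts of members called, higher and lower in 4 comparisons, stayed within 1.5 times of the reported ones with TMM, with the median of ratios and with a pseudocount of 0.1 CPM. With a 1.5-fold threshold, 9 members were higher and 1 lower in T-ALL bone marrow, and 5 were higher and 12 lower in T-ALL spleen. Without the minimum, 8 members were lower in normal spleen than in normal bone marrow. The 1.5-fold threshold calls more genes by construction, as does leaving out the minimum. The log2 folds of the 27 members in 4 comparisons, 108 values, moved by at most 0.024 with TMM, 0.030 with the median of ratios and 0.72 with the smaller pseudocount, each by less than the counting error of its ratio, and no called value changed sign. Of 40 counts for the pathway lists, computed as settings added after seeing the data, all kept within 1.5 times under these 3 settings, 4 moved past 1.5 times, all upward, without the minimum and 13, all upward, with the 1.5-fold threshold. No paired analysis was possible because each group holds 1 library and the labels give no replicate numbers. No replicate could be left out for the same reason. Depth limits the genes under 10 CPM, where 3 reads are 0.306 to 0.334 CPM.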
